A study of Homo sapiens with 4 samples.

Results

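The genes that build cholesterol and fatty acids were followed in HCT116, a human colon carcinoma line, with and without a CRISPR lesion in TOP3B, whose product is a topoisomerase with activity towards RNA as well as DNA. The members were 38 genes named by symbol: 19 of the sterol branch, 15 of the fatty acid branch and 4 regulators that serve both. Of these, 35 had a row among the 35820 of the deposited count table, and all 35 passed the filter on low counts; the phosphomevalonate kinase PMVK, the stearoyl-CoA desaturase SCD and the malic enzyme ME1 were not analysed here. The wild-type group (WT) was the parental line, and the knockout group (KO) was a line called E2-4, made from HCT116 with a guide RNA against exon 2 of TOP3B. Each group had 2 libraries of ribosomal RNA-depleted total RNA, and all cells grew in the same medium with fetal bovine serum, a source of lipoprotein cholesterol. As the KO group was 1 line, effects of the genotype and of the clone cannot be told apart. No label says that the libraries of 1 group are separate cultures, so p-values measure the spread between these libraries.

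Both branches start from acetyl-CoA in the cytosol. In the sterol branch acetyl-CoA is built into mevalonate, isoprene units, squalene and then cholesterol; in the fatty acid branch it is carboxylated, assembled into palmitate, elongated, desaturated and activated to acyl-CoA. Transcription of both is driven by the sterol regulatory element-binding proteins, which SCAP escorts out of the endoplasmic reticulum when sterols are scarce and INSIG proteins hold back when sterols are plentiful. These factors bind sterol regulatory elements in promoters, commonly beside CCAAT boxes, the sites of the factor NF-Y.

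Promoter sequences were read from RefSeq (GRCh38.p14) as the 250 bases before each annotated start, for 34 of the 38 members (not for ACAT2, FASN, FDFT1 and SQLE). The motifs searched on both strands were CCAAT, the sterol element TCACNCCAC, the E-box CACGTG and the GC box GGGCGG, and overlapping matches were counted separately. CCAAT stood before at least 1 start of 14 of 16 sterol branch genes (87.5%) and 9 of 14 fatty acid genes (64.3%). It did so for 2 of 4 regulators. By the same count it did so for 42.0% of the 9442 tested genes with an entry and 37.0% of all 27305 genes with an entry. The exact sterol element was found for SREBF2 and at 1 of the 5 annotated starts of ACSL1. It was found for 1.18% of tested genes and 1.09% of all genes. GC boxes were found for 32 of 34 members, against 74.6% of tested genes and 46.2% of all genes. The E-box was found for 4 of 34, against 11.4% and 7.73%. A match describes the letters of the window and does not show a bound factor. The windows below are from a regulator with the sterol element (chr22:41832855-41833104 (+ strand)), the feedback regulator INSIG1 (chr7:155297628-155297877 (+ strand)), the sterol genes richest in CCAAT, MVK (chr12:109573544-109573793 (+ strand)) and NSDHL (chrX:152830813-152831062 (+ strand)), and the fatty acid gene ACSL3 (chr2:222860786-222861035 (+ strand)). Capitals mark CCAAT or its complement ATTGG and, in SREBF2, also TCACCCCAC, which begins 133 bases before the start.
SREBF2: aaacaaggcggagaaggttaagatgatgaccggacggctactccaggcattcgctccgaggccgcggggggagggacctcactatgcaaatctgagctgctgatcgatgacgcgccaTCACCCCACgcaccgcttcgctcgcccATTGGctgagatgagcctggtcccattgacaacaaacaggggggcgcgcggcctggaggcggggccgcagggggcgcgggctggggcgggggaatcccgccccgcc
INSIG1: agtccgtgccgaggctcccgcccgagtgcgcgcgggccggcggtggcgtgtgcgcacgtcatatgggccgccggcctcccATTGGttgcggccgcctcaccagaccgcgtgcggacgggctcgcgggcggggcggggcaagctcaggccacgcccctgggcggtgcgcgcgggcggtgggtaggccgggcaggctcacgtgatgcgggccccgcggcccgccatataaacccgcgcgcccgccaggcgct
MVK: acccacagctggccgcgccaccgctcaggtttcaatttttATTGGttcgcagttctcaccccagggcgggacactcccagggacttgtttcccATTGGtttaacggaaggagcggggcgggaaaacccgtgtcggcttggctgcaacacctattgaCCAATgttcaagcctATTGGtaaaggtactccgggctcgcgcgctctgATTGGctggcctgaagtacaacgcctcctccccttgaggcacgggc
NSDHL: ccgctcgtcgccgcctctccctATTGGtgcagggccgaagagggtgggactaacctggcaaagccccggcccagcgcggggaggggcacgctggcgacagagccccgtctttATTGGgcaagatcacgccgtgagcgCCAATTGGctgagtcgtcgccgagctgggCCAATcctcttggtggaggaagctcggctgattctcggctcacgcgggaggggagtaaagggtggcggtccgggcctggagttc
ACSL3: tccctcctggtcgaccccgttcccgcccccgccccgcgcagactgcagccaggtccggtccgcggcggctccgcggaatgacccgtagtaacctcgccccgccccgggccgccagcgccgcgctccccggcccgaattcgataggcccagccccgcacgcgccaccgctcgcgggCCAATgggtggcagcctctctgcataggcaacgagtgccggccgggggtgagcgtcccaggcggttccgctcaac
MVK and NSDHL each hold 5 CCAAT matches in this window, of which a pair overlaps in NSDHL as CCAATTGG, and SREBF2, INSIG1 and ACSL3 hold 1 each.

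The libraries held 10450048 to 16143634 estimated counts, and 3 counts in a library, the level that a count of 0 allows, correspond to 0.176 to 0.271 CPM (counts per 1e+06 counts of a library scaled with its TMM factor). TOP3B itself stood at 57.1 and 66.5 CPM in WT and 43.9 and 54.7 CPM in KO (a log2 fold change of -0.32, SE 0.17; edgeR adjusted p = 0.522), so its transcript level does not check the genotype. WT replicate 1 stood apart in its TMM factor, 0.858, the others having 1.04 to 1.06. Of 10 colon epithelial markers 9 had a row; KRT19, EPCAM, KRT8, KRT18 and CDH1 were expressed, while CEACAM5 and VIL1, markers of differentiated colon epithelium, had at most 1 count in any library, and CDX2 had 46 and 44 counts in WT and 56 and 0 in KO. The summed level of the epithelial markers was 2117 to 2584 CPM in WT and 1452 to 1522 CPM in KO. KRT19 carried this difference, with 2243 and 1744 CPM in WT and 1206 and 1083 CPM in KO. EdgeR did not call KRT19 (adjusted p = 0.293), while DESeq2 did (adjusted p = 0.0029). Without KRT19 the sums were 341.0 and 372.6 CPM in WT and 316.3 and 368.7 CPM in KO. KRT8 and KRT18 overlapped between groups. EPCAM had 138.5 and 93.2 CPM in WT and 89.9 and 88.2 CPM in KO (edgeR adjusted p = 0.530). CDH1 had 23.6 and 16.2 CPM in WT and 12.9 and 10.6 CPM in KO (edgeR adjusted p = 0.420). Both were lower in each KO library than in either WT library, as were 23.5% of tested genes. The part of KRT19 in the results below was not tested. Adipocyte markers summed to at most 0.771 CPM in any library, with ADIPOQ and FABP4 at 0 counts in all 4, and leukocyte markers to at most 0.491 CPM. Hepatocyte markers summed to 7.24 to 11.4 CPM, nearly all of it SERPINA1, with APOA1 at 0 counts in all 4, and fibroblast markers to at most 1.72 CPM, with COL1A2 at 0 counts in all 4. In bulk RNA, fewer cells of a kind and less RNA per cell cannot be told apart.

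Most members were lower in the KO line, mostly by little, and few or none passed the tests over all genes. Of the 35 members, 26 had a log2 fold change (KO over WT) below 0, or 74.3%, against 51.5% of the 12269 tested genes. With column totals in place of TMM factors MVD, FDPS, MSMO1 and SC5D, all of the sterol branch, turned above 0. In 18 members each KO library was under each WT library (51.4%, against 23.5% of tested genes), and in 1, SCAP, both lay above (2.86%, against 23.5%). The median was -0.30, against -0.01 over all tested genes. EdgeR's quasi-likelihood test with adjustment over all genes called 0 members, as it called 0.00815% of genes lower and 0% higher; at an unadjusted p under 0.05 it gave 6 members lower and 0 higher, where 6.21% and 4.97% of tested genes had such a p. With 1 library left out, the number of members with such a p changed, and so did the number of tested genes with it. DESeq2 called 2 members lower, FDFT1 and ACSL1, and 0 higher, where it called 0.946% of 12899 genes lower and 0.504% higher. Leaving out a library changed these DESeq2 calls, and also the number of genes called in all. ACSL1 was called in none of these fits, and FDFT1 only in that without WT replicate 2. By edgeR, FDFT1 and ACSL3 passed without WT replicate 2 (adjusted p = 0.0402 and 0.0397), a setting in which 575 genes passed in all.

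**Figure D1:**
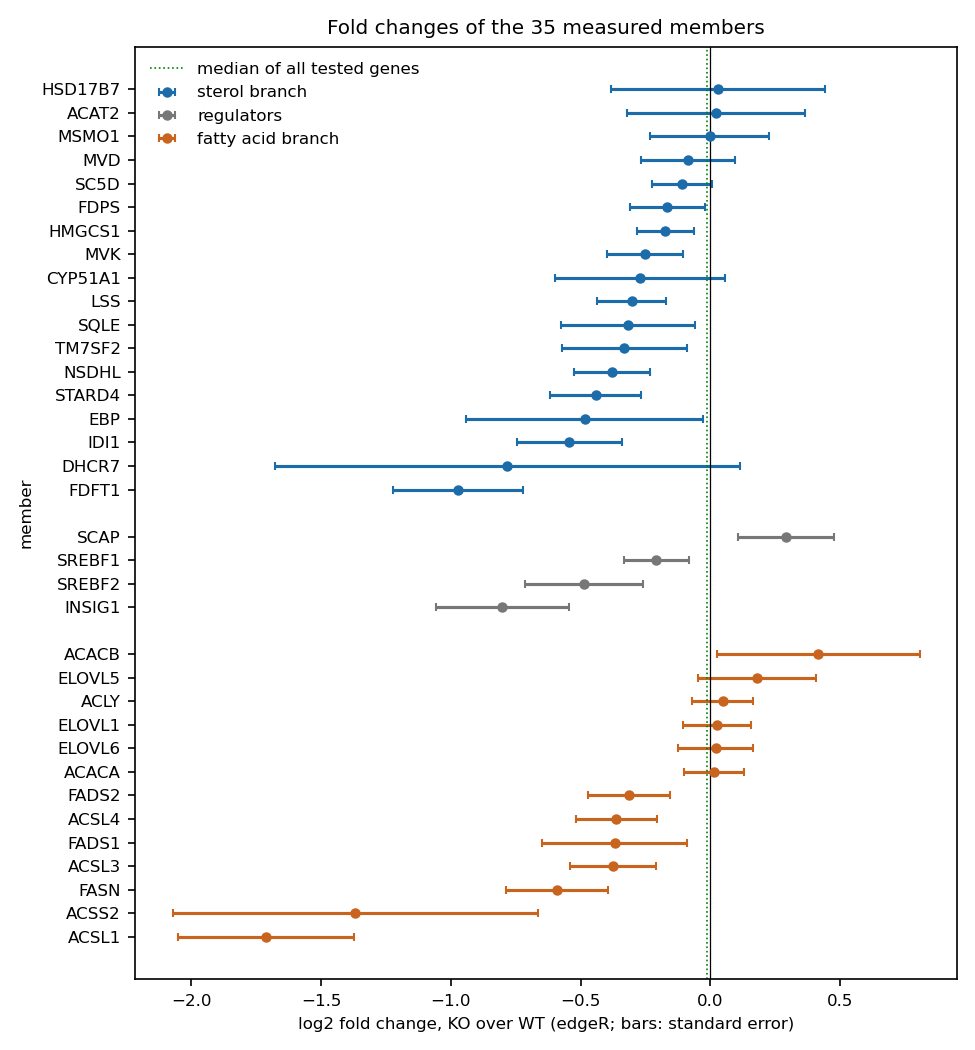
Log2 fold change of each measured member (edgeR, KO over WT) with its standard error, by branch; the dotted line is the median of all tested genes. Sterol branch genes lie between -0.97 and 0.03, while fatty acid genes run from -1.71 for ACSL1 to 0.42 for ACACB, with 6 above 0.

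In the mevalonate and isoprene steps, differences were small except at IDI1. ACAT2, the thiolase that joins acetyl-CoA units, had 3.01 and 3.03 CPM in WT and 3.25 and 2.88 CPM in KO (a log2 fold change of 0.02, SE 0.34; edgeR adjusted p = 0.984), so the groups overlapped. HMGCS1, which makes HMG-CoA, had 229.9 and 233.1 CPM in WT and 198.1 and 212.1 CPM in KO. Both KO libraries were lower, by little (-0.17, SE 0.11; edgeR adjusted p = 0.563). MVK, which phosphorylates mevalonate, had 30.4 and 30.6 CPM in WT and 25.9 and 25.3 CPM in KO (-0.25, SE 0.15; edgeR adjusted p = 0.543), with libraries of a group close to each other. MVD, the decarboxylase that forms isopentenyl diphosphate, overlapped between groups (-0.09, SE 0.18; edgeR adjusted p = 0.862).

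IDI1, which isomerises isopentenyl diphosphate into its reactive partner, had 21.0 and 18.1 CPM in WT and 12.2 and 14.6 CPM in KO. Its groups did not overlap and the WT mean of 19.5 ± 2.02 CPM was 1.46 times the KO mean of 13.4 ± 1.67 CPM (SD, n = 2 each; log2 fold change -0.54, SE 0.20; edgeR adjusted p = 0.441, unadjusted p = 0.0443; DESeq2 adjusted p = 0.715). FDPS, the farnesyl diphosphate synthase at the branch point to protein prenylation, was among the most abundant members, with 476.6 and 392.0 CPM in WT and 399.8 and 374.7 CPM in KO. Its KO replicate 1 lay above WT replicate 2 (-0.17, SE 0.14; edgeR adjusted p = 0.659).

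FDFT1, the squalene synthase that commits farnesyl units to sterols, showed the largest fold change of the branch. It had 132.5 and 94.0 CPM in WT and 67.9 and 47.9 CPM in KO, with counts of 1720, 1148, 751 and 816. No KO value reached the lower WT value, and replicate 1 was the higher in each group, by 1.41 times in WT and 1.42 times in KO. The WT mean was 1.96 times the KO mean (log2 fold change -0.97, SE 0.25; edgeR adjusted p = 0.349, unadjusted p = 0.0115; DESeq2 adjusted p = 0.0391). With 1 library left out this log2 fold change ran from -1.24 to -0.70. Of the DESeq2 fits with 1 library left out, FDFT1 was called only in that without WT replicate 2.

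Of the steps from squalene to cholesterol, LSS, TM7SF2, NSDHL and SC5D were lower in both KO libraries than in either WT library. Counting FDFT1, this held for 5 of the 11 genes from FDFT1 to DHCR7, against 23.5% of tested genes. The groups of SC5D nearly met, with 119.0 and 110.6 CPM in WT and 103.1 and 109.6 CPM in KO. SQLE, the squalene epoxidase, had 78.9 and 61.1 CPM in WT and 43.9 and 68.2 CPM in KO, so that KO replicate 2 lay among the WT values (-0.32, SE 0.26; edgeR adjusted p = 0.642). Its log2 fold change was -0.037 without KO replicate 1 and -0.67 without KO replicate 2. LSS, which closes the sterol rings to lanosterol, had 84.2 and 98.7 CPM in WT and 74.0 and 74.3 CPM in KO (-0.30, SE 0.13; edgeR adjusted p = 0.478). NSDHL, a dehydrogenase that helps to remove methyl groups from the ring, had 59.9 and 52.1 CPM in WT and 44.6 and 41.5 CPM in KO. Its WT mean was 1.30 times its KO mean (-0.38, SE 0.15; edgeR adjusted p = 0.445, unadjusted p = 0.0477). TM7SF2, a sterol reductase, was also lower in both KO libraries (-0.33, SE 0.24; edgeR adjusted p = 0.609).

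CYP51A1, EBP and DHCR7 varied as much within a group as between groups. CYP51A1, the lanosterol demethylase, had 95.6 and 49.1 CPM in WT and 55.8 and 63.9 CPM in KO; its log2 fold change of -0.27 became 0.29 without WT replicate 1. EBP, a sterol isomerase, had 45.4 and 18.0 CPM in WT and 25.8 and 19.6 CPM in KO, and its -0.48 became 0.33 without WT replicate 1. DHCR7, the reductase of the last step to cholesterol, had 5.47 and 15.9 CPM in WT and 1.81 and 10.4 CPM in KO. In both groups replicate 1 was far below replicate 2, by 2.90 times in WT and 5.75 times in KO, and the groups overlapped. Its log2 fold change of -0.78 (SE 0.90; edgeR adjusted p = 0.736) ran from -2.55 without KO replicate 2 to 0.19 without WT replicate 2.

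Of the remaining sterol genes, STARD4 and SC5D were lower in both KO libraries, SC5D by little, and HSD17B7 and MSMO1 overlapped between groups. HSD17B7, a sterol ketoreductase, had 2.62 and 4.67 CPM in WT and 3.61 and 3.82 CPM in KO (0.03, SE 0.41; edgeR adjusted p = 0.980), both KO values lying between the WT values. MSMO1, a methyl sterol oxidase, and SC5D, a sterol desaturase, had log2 fold changes of -0.0021 and -0.11. STARD4, which carries cholesterol between membranes, had 39.1 and 39.0 CPM in WT and 32.1 and 25.4 CPM in KO (-0.44, SE 0.18; edgeR adjusted p = 0.454, unadjusted p = 0.0526).

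**Figure D2:**
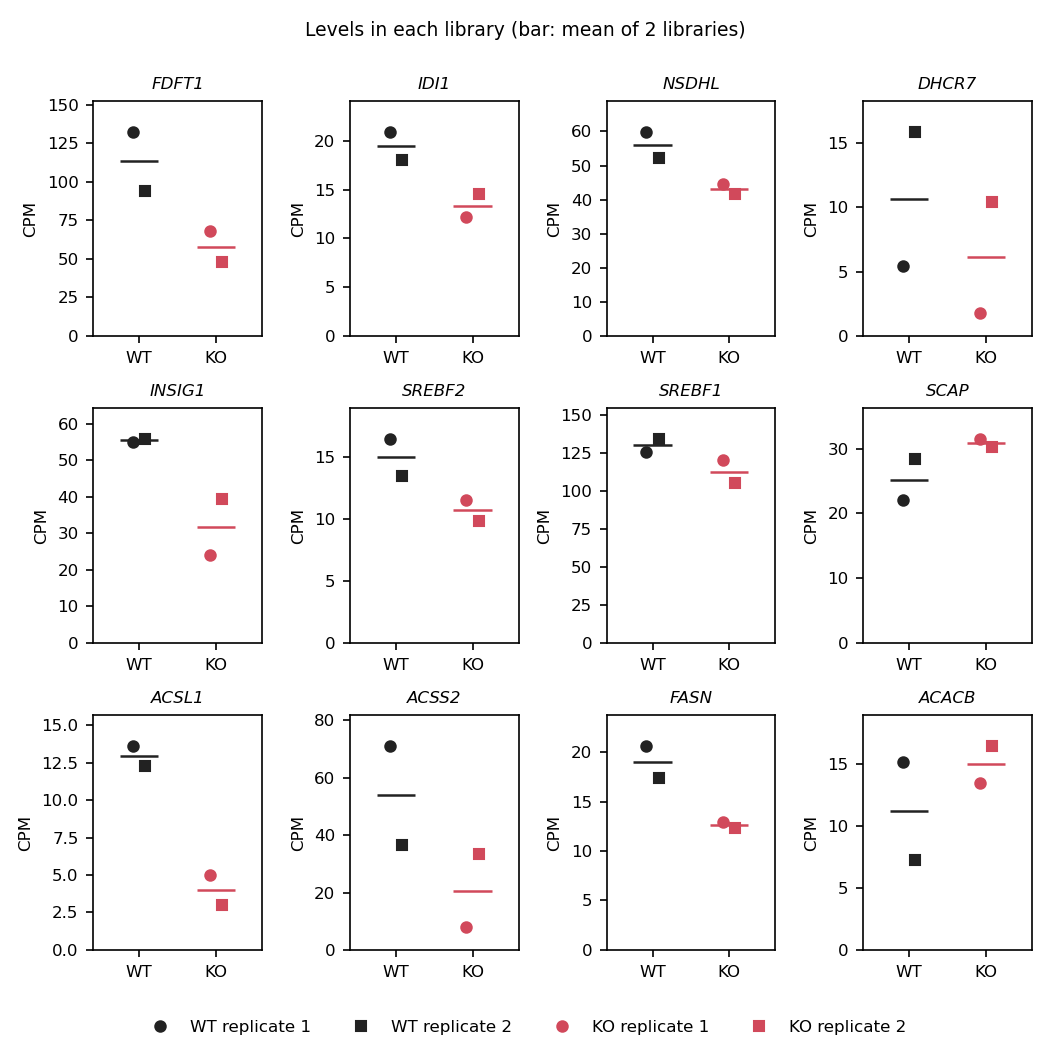
CPM (TMM-scaled) of 12 members in each library, with circles for replicate 1, squares for replicate 2 and a bar for the mean of the group; each panel has its own axis from 0. ACSL1, ACSS2, FDFT1, IDI1, NSDHL, FASN, INSIG1, SREBF1 and SREBF2 were lower in both KO libraries than in either WT library, SCAP was higher, and the libraries of 1 group were over 2-fold apart for DHCR7 and ACSS2 in KO and for DHCR7 and ACACB in WT.

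Among the regulators, 3 were lower and 1 was higher in both KO libraries, where 23.5% of tested genes were lower and 23.5% higher in both. INSIG1, which retains SCAP in the endoplasmic reticulum and is itself induced when sterols are scarce, had 55.0 and 55.9 CPM in WT and 24.1 and 39.3 CPM in KO. The WT libraries were nearly equal, the KO libraries differed by 1.63 times, and the groups did not overlap (55.5 ± 0.647 against 31.7 ± 10.7 CPM, SD, n = 2 each; log2 fold change -0.80, SE 0.26; edgeR adjusted p = 0.395, unadjusted p = 0.0257; DESeq2 adjusted p = 0.223). The log2 fold change was -0.50 without KO replicate 1 and -1.20 without KO replicate 2. SREBF2, the factor that favours sterol genes, had 16.5 and 13.5 CPM in WT and 11.6 and 9.86 CPM in KO (-0.49, SE 0.23; edgeR adjusted p = 0.495). SREBF1, whose products favour fatty acid genes, had 125.9 and 134.5 CPM in WT and 120.2 and 105.3 CPM in KO (-0.21, SE 0.13; edgeR adjusted p = 0.555). SCAP had 22.1 and 28.3 CPM in WT and 31.5 and 30.2 CPM in KO (0.29, SE 0.19; edgeR adjusted p = 0.565). None of the 4 passed edgeR or DESeq2 over all genes, and INSIG1 was the 1 regulator with an unadjusted edgeR p under 0.05.

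In the fatty acid branch the abundant enzymes of the early steps stood at like levels in both lines. ACLY, which makes cytosolic acetyl-CoA from citrate, had 787.8 and 796.3 CPM in WT and 846.8 and 789.5 CPM in KO (0.05, SE 0.12; edgeR adjusted p = 0.892). ACACA, the acetyl-CoA carboxylase of the cytosol, had 728.2 and 717.9 CPM in WT and 711.2 and 748.8 CPM in KO (0.01, SE 0.12; edgeR adjusted p = 0.967). The groups of both genes overlapped, and their standard errors were among the smallest of the members. ACACB, the carboxylase at mitochondria, had 15.2 and 7.29 CPM in WT and 13.5 and 16.5 CPM in KO; the WT libraries alone spanned 2.08 times (0.42, SE 0.39; edgeR adjusted p = 0.681).

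ACSS2 and FASN were lower in both KO libraries. ACSS2, which makes acetyl-CoA from acetate, had 71.2 and 36.5 CPM in WT and 7.95 and 33.3 CPM in KO. KO replicate 1 stood far below the rest, with KO replicate 2 at 4.19 times its level and close to WT replicate 2. The fit gave -1.37 on the log2 scale (SE 0.70; edgeR adjusted p = 0.517; DESeq2 adjusted p = 0.835). It was -0.69 without KO replicate 1 and -2.76 without KO replicate 2. FASN, the synthase that assembles palmitate, had 20.7 and 17.4 CPM in WT and 12.9 and 12.3 CPM in KO. The libraries of each group were close to each other and the groups did not overlap (19.0 ± 2.33 against 12.6 ± 0.418 CPM, SD, n = 2 each; -0.59, SE 0.20; edgeR adjusted p = 0.410, unadjusted p = 0.0296; DESeq2 adjusted p = 0.634).

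The elongases ELOVL1, ELOVL5 and ELOVL6, which lengthen fatty acyl chains, overlapped between groups, with log2 fold changes of 0.03, 0.18 and 0.02. ELOVL5 had 16.6 and 23.3 CPM in WT and 21.2 and 23.9 CPM in KO (SE 0.23; edgeR adjusted p = 0.762). The desaturases FADS1 and FADS2, which act on polyunsaturated chains, had -0.37 (SE 0.28; edgeR adjusted p = 0.618) and -0.32 (SE 0.16; edgeR adjusted p = 0.510), and FADS2 had no overlap between groups. FADS1 rested on KO replicate 2: its log2 fold change was -0.070 without that library and -0.73 without KO replicate 1.

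The 3 acyl-CoA synthetases among the members, ACSL1, ACSL3 and ACSL4, activate long-chain fatty acids, and each was lower in both KO libraries than in either WT library, as were 23.5% of tested genes. Of the family's other genes, outside the members, ACSL5 had 4.01 and 2.46 CPM in WT and 0.813 and 2.35 CPM in KO (-0.999, SE 0.62; edgeR adjusted p = 0.560). ACSL6 overlapped between groups, with 1.23 and 4.50 CPM in WT and 3.89 and 3.41 CPM in KO (0.35, SE 0.65; edgeR adjusted p = 0.845). ACSL1 had 13.6 and 12.3 CPM in WT and 4.97 and 2.99 CPM in KO, with counts of 177, 150, 55 and 51. The WT mean of 13.0 ± 0.958 CPM was 3.25 times the KO mean of 3.98 ± 1.40 CPM (SD, n = 2 each), the largest fold of the 35 members (-1.71, SE 0.34; edgeR adjusted p = 0.260, unadjusted p = 0.00377; DESeq2 adjusted p = 0.0270). With 1 library left out its log2 fold change ran from -2.11 to -1.38, and the DESeq2 adjusted p was 1.000 and 0.205 on dropping WT replicate 1 or 2 and 0.223 and 1.000 on dropping KO replicate 1 or 2. ACSL3, the most abundant of the family in reads, had 639.4 and 489.9 CPM in WT and 423.2 and 447.9 CPM in KO (-0.37, SE 0.17; edgeR adjusted p = 0.482). ACSL4, which prefers arachidonate, had 57.7 and 47.7 CPM in WT and 41.0 and 40.9 CPM in KO (-0.36, SE 0.16; edgeR adjusted p = 0.474).

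**Figure D3:**
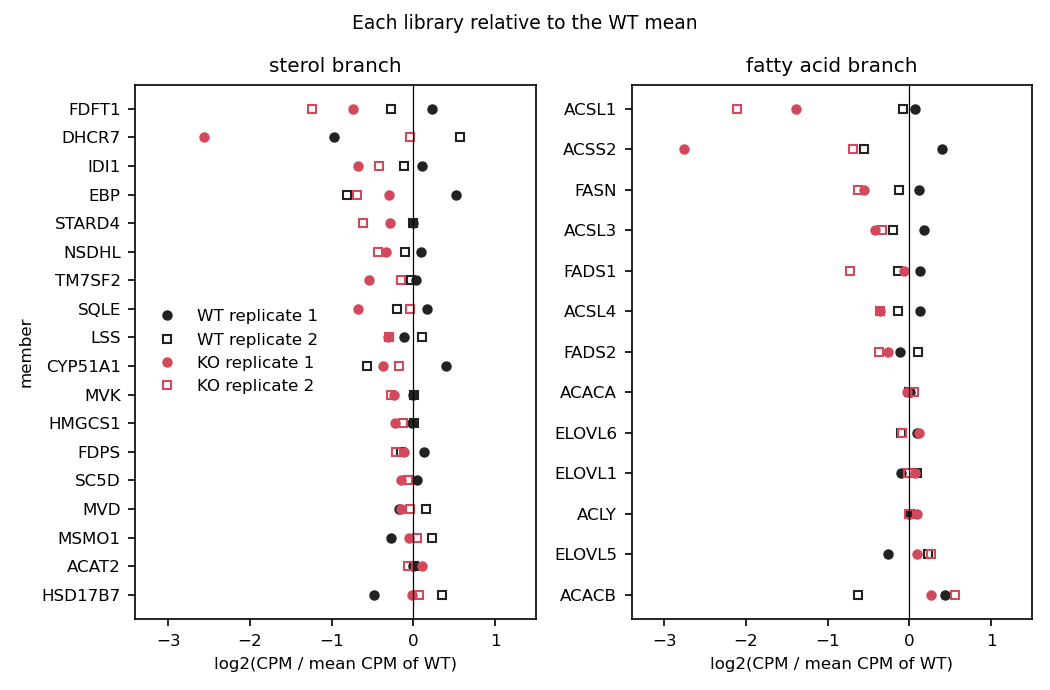
Level of each member in each library as log2 of its CPM over the mean CPM of the WT libraries, with members ordered by fold change in each branch. In the sterol branch most KO points lie slightly left of 0, while in the fatty acid branch ACSL1, ACSS2 and FASN lie left and ACLY, ACACA and the elongases lie around 0.

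The branches had like medians. The sterol branch had a median log2 fold change of -0.29, with 16 of 18 members below 0 (88.9%, against 51.5% of tested genes) and a range from -0.97 to 0.03. The fatty acid branch had a median of -0.32, with 7 of 13 members below 0 (53.8%, near the background) and a range from -1.71 to 0.42. Each KO library was under each WT library for 9 of 18 sterol genes and 6 of 13 fatty acid genes, against 23.5% of tested genes, and above for 0 of either. The difference of the medians, sterol minus fatty acid, was 0.03 on the log2 scale, smaller than the replicate SD of that difference (0.12), and it ran from -0.22 without KO replicate 2 to 0.17 without KO replicate 1. Counts and ends of the ranges moved too: with 1 library left out, 13 to 17 of 18 sterol genes and 8 to 10 of 13 fatty acid genes lay below 0. Without KO replicate 2 the lowest values were -2.55 (DHCR7) and -2.76 (ACSS2), and without WT replicate 2 HSD17B7 stood at 0.52 and ELOVL5 at 0.45. No test was made of the difference, since genes of a pathway are not replicates. The fatty acid median also depended on the libraries: it was -0.07 without KO replicate 2, -0.17 without WT replicate 1 and -0.19 without WT replicate 2, while the sterol median was -0.16 without KO replicate 1.

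Summed over its members, the sterol branch had 1482 and 1292 CPM in WT and 1149 and 1157 CPM in KO. Both KO sums lay below both WT sums, and the KO sums were nearly equal. Over all tested genes the sums were 1.1652e+06 and 961087 CPM in WT and 943166 and 946781 CPM in KO. These all-gene sums are set by the TMM factors alone. They therefore cannot show whether the lower branch sums are particular to the branches. The fatty acid branch had 2571 and 2372 CPM in WT and 2308 and 2316 CPM in KO, and most of this sum was ACLY, ACACA and ACSL3. Within the sterol branch the 6 steps before squalene had a median of -0.17 and the 11 from FDFT1 to DHCR7 had -0.32. Within the fatty acid branch, ACLY, ACSS2, ACACA, ACACB and FASN had a median of 0.01 and the 3 ACSL genes had -0.37. The 5 genes of elongation and desaturation had 0.02, with FADS1 at -0.37, FADS2 at -0.32 and the elongases from 0.02 to 0.18. These subdivisions follow the order of the steps and were made with the values known, so they are descriptions.

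**Figure D4:**
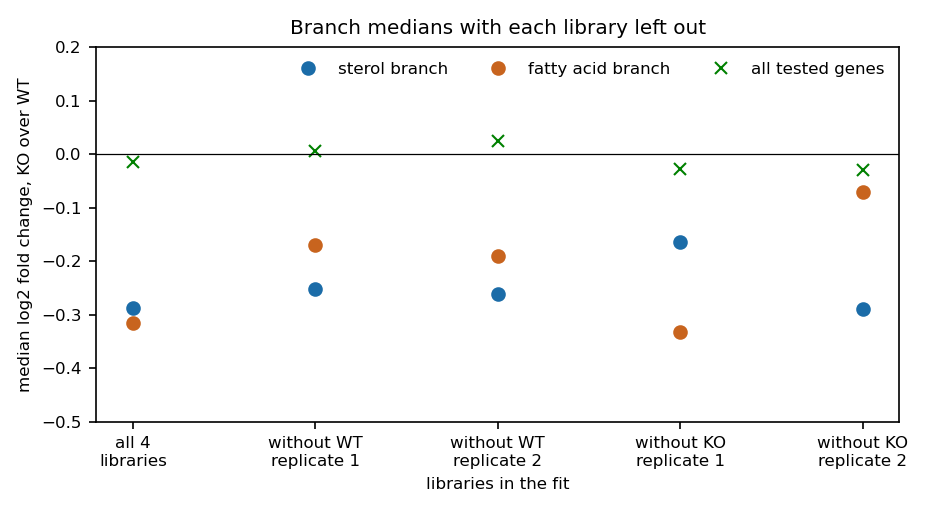
Median log2 fold change of the sterol branch (18 genes), the fatty acid branch (13 genes) and all tested genes, with all 4 libraries and with each library left out in turn. Both branch medians stay below 0 in these 5 fits, and their order changes: the sterol median is the lower without WT replicate 1, WT replicate 2 or KO replicate 2.

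Replicates of a group differed over 2-fold for few members. In KO this held for 2 of 35 members, DHCR7 and ACSS2, against 9.64% of tested genes. In WT it held for 3, DHCR7, EBP and ACACB, against 11.5%. KO replicate 2 was above KO replicate 1 for 11 of 18 sterol genes, 5 of 13 fatty acid genes and 1 of 4 regulators, against 49.8% of tested genes. WT replicate 2 was above WT replicate 1 for 8, 4 and 3 of them, against 52.4%.

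Other genes of the same pathways had medians near that of all tested genes. Of 21 further sterol genes (regulators, uptake, export and side branches), 18 had a row and 16 were tested, with a median log2 fold change of 0.01 and 8 below 0. At an unadjusted edgeR p under 0.05, 1 was lower and 2 were higher (6.25% and 12.5%, against 6.21% and 4.97% of tested genes); edgeR and DESeq2 called 0 over all genes. INSIG2, the second INSIG protein, had 32.2 and 26.6 CPM in WT and 16.4 and 10.8 CPM in KO (-1.12, SE 0.26; edgeR adjusted p = 0.316; DESeq2 adjusted p = 0.0698). Neither INSIG gene had a KO library at or above a WT library. DHDDS, which makes dolichol precursors from farnesyl units, had 21.0 and 29.4 CPM in WT and 45.2 and 41.9 CPM in KO (0.79, SE 0.21; edgeR adjusted p = 0.349), and passed edgeR without WT replicate 2 (adjusted p = 0.0454). MBTPS2, a protease that releases the active sterol factor from its membrane anchor, had 1.46 and 1.56 CPM in WT and 4.16 and 3.11 CPM in KO, from 19 to 53 counts a library (1.26, SE 0.39; edgeR adjusted p = 0.389).

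Of 28 further fatty acid genes, 25 had a row and 24 were tested, with a median of 0.05 and 10 below 0. At an unadjusted edgeR p under 0.05, 1 was lower and 1 was higher (4.17% each way, against 6.21% and 4.97%); edgeR and DESeq2 called 0. ELOVL7, an elongase of long saturated chains, had 21.6 and 15.1 CPM in WT and 8.76 and 9.75 CPM in KO (-0.98, SE 0.26; edgeR adjusted p = 0.349). It stood apart from the 3 elongases among the members, which overlapped between groups. DGAT2, which forms triacylglycerol for storage, had 0.539 and 0.328 CPM in WT and 3.16 and 2.11 CPM in KO, on counts of 7, 4, 35 and 36 (2.57, SE 0.54; edgeR adjusted p = 0.274; DESeq2 adjusted p = 0.247). The KO mean was 6.09 times the WT mean, at a level near the limit of detection in WT.

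**Figure D5:**
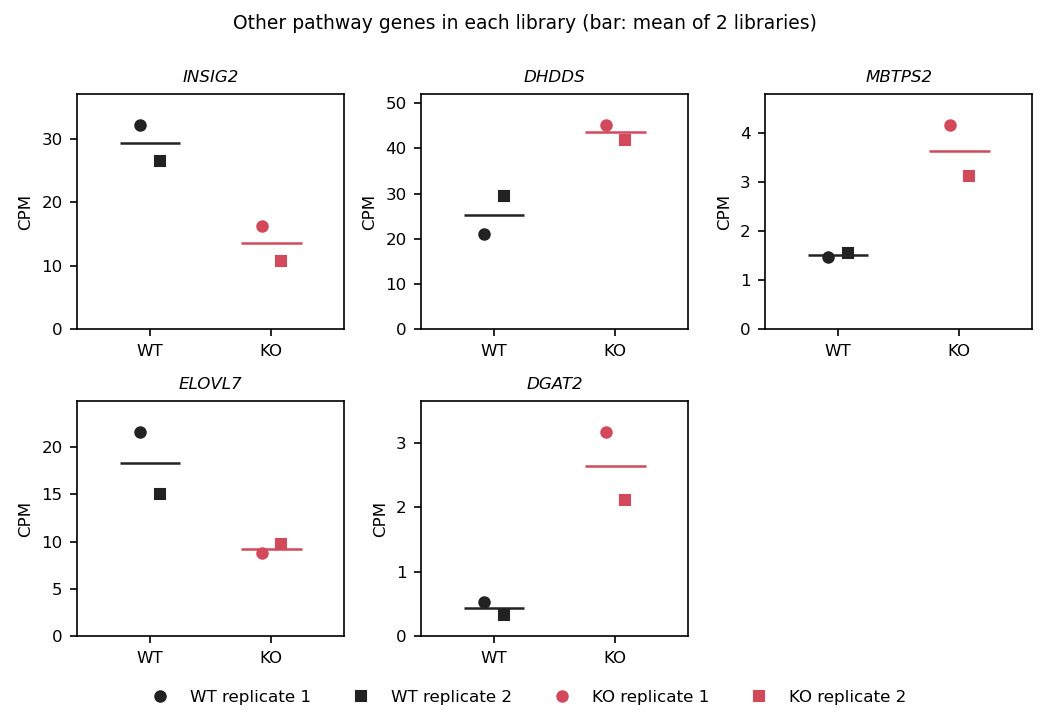
CPM (TMM-scaled) in each library of the 5 further pathway genes with an unadjusted edgeR p under 0.05; circles are replicate 1, squares replicate 2 and bars group means, on axes from 0. INSIG2 and ELOVL7 are lower and DHDDS, MBTPS2 and DGAT2 higher in both KO libraries, and none passed adjustment over all genes.

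Per length, FDPS was the most abundant member, with a mean of 47.7 RPKM over the 4 libraries, followed by ACLY (25.5), ELOVL1 (24.9), SREBF1 (21.7) and HMGCS1 (15.7). ACSL1 was lowest at 0.144 RPKM, below ACAT2 at 0.267 and ELOVL5 at 0.295. The lengths implied by the deposited RPKM were longer than the longest spliced transcript of GENCODE 29 for 34 of 35 members, with a median of 4.21 times it, and FASN was the exception at 0.490 times. Whether reads from introns were counted is not stated by the labels or file headers. CPM and fold changes in this total RNA may therefore take in unspliced transcripts, which was not tested, and levels of different genes can be compared only loosely.

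Some estimates are uncertain because reads can be shared. In GENCODE 29, 10 of the 35 members overlap another protein-coding gene, among them ACAT2 with TCP1 and SOD2, MVK with MMAB, TM7SF2 with VPS51, and FADS1 with FADS2. Pseudogenes named after the gene exist for FDPS (8), CYP51A1 (3), HSD17B7 (2) and FADS2 (1). FDFT1, ACSL1, INSIG1, IDI1, NSDHL and FASN, the 6 members with an unadjusted edgeR p under 0.05, had neither. Counting genes of any type, 27 of the 35 members overlap another gene, among them FDFT1 (1 gene), IDI1 (1) and ACSL1 (2).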

How the data were processed

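RNA was measured in 4 HCT116 libraries, 2 WT and 2 KO, grouped by their titles. The authors deposited estimated counts for each gene, and RPKM values. The submitters' processing notes name Salmon 1.10.1 and hg19; for annotation and summing of transcripts, the sources used here give nothing. Counts as deposited are whole, and were taken as rounded estimates. The deposited RPKM equal these counts over a gene length and the column total. EdgeR 4.0.16 (quasi-likelihood F-test, TMM factors, filterByExpr with its minimum count of 10, genotype alone; R 4.3.3) was fitted on the whole table, with Benjamini-Hochberg adjustment over 12269 genes and a threshold of 0.05. The SE is the log2 fold change divided by the square root of F. Alternatives were DESeq2 1.42.0 (Wald test, independent filtering set for 0.05), limma-voom (limma 3.58.1), RLE factors, column totals, no filter, a replicate block and each library left out. The scripts were tested on simulated data. Members, branches and lists were chosen with earlier results of these data known, so lists are described and not tested. Values in every library are given for members with an unadjusted edgeR p or DESeq2 adjusted p under 0.05 and for the 2 largest rises and falls of each group, with others added; of the further genes, those with such a p are named. Other members are given by fold change. GENCODE 29 and RefSeq (GRCh38) served for lengths, overlaps and promoters. Floors cover counting error only.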

Additional observations from a re-analysis of the deposited data

How the results depend on the processing

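With column totals in place of TMM factors the median of all genes moved by 0.16 on the log2 scale, to 0.14. The sterol, fatty acid and regulator medians were then -0.12, -0.17 and -0.19, which is -0.26, -0.31 and -0.33 relative to all genes (-0.27, -0.30 and -0.33 with TMM), and the further sterol and fatty acid lists had 0.16 and 0.20; 12 of 18 sterol genes lay below 0, as MVD (0.054), FDPS (0.0047), MSMO1 (0.13) and SC5D (0.052) turned above it. MSMO1 also lay above 0 with no filter (0.0083), DESeq2 (0.0032), limma-voom (0.029) and the replicate block (0.015). The median of the further sterol genes, 0.01, was -0.018 with no filter, -0.024 with DESeq2 and -0.0012 with limma-voom. Over all genes edgeR called 1 (0 higher, 1 lower), against 42 with column totals (15 higher, 27 lower), 34 with no filter (7 and 27) and 187 with DESeq2 (65 and 122), and 1 with limma-voom; the called members were 0, 0, 0, 2 and 0. Members at an unadjusted p under 0.05 were 6 by edgeR, 2 with column totals and 3 by DESeq2, where 1372, 1288 and 1203 genes had such a p. With 1 library left out, the edgeR numbers of members and of all genes changed.

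With each library left out, the lone library of its group was assumed to vary like the other group. The count called over all genes then ran from 0 to 575 and the called members from 0 to 2, both highest without WT replicate 2. The medians ran from -0.29 to -0.16 (sterol), -0.33 to -0.070 (fatty acid), -0.40 to -0.24 (regulators), -0.22 to 0.17 (sterol minus fatty acid), -0.059 to 0.044 (further sterol genes) and -0.021 to 0.054 (further fatty acid genes). Members whose fold change changed sign had ranges of -0.66 to 0.29 (CYP51A1), -0.33 to 0.52 (HSD17B7), -0.99 to 0.33 (EBP), -0.069 to 0.14 (ELOVL1), -0.042 to 0.45 (ELOVL5), -0.25 to 0.10 (MVD), -0.23 to 0.28 (MSMO1), -2.55 to 0.19 (DHCR7), -0.0035 to 1.04 (ACACB), -0.087 to 0.12 (ELOVL6), -0.067 to 0.11 (ACAT2), -0.0027 to 0.097 (ACLY) and -0.023 to 0.052 (ACACA). The DESeq2 fits without 1 library, chosen after seeing the data, changed which members were called and how many genes were called in all. The cause was not tested.

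The numbers that the labels give to replicates do not say that libraries were paired, and with 2 pairs the data cannot settle it; across genes the deviations of same-numbered libraries correlated at 0.07. With the replicate block edgeR called 1 gene and 0 members, with medians of -0.28 (sterol), -0.31 (fatty acid) and -0.35 (regulators).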

Other observations

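Divided by the longest spliced transcript of GENCODE 29 in place of the deposited length, FDPS and ACLY stayed the most abundant members (203.7 and 185.6 CPM per kilobase), and ACSL3 came next (88.1). FASN moved from rank 15 of 35 by RPKM to rank 32, TM7SF2 from 14 to 26, NSDHL from 24 to 10 and ELOVL5 from 33 to 23. ACAT2 was then lowest, at 0.956 CPM per kilobase, and ACSL1 stood at rank 31. The rank of a gene among the members thus depended on the length used.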
